A study of Mus musculus with 6 samples.

Results

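The chemokine ligands outside the Ccl21 copies were examined in mouse hind limb muscle. The 10 genes were taken from the table by symbol, from a list drawn up with earlier results of these data known, and are Ccl2, Ccl6, Ccl7, Ccl8, Ccl9, Ccl11, Cxcl12, Cxcl14, Cxcl16 and Pf4. All 10 symbols were found among the 20632 genes of the deposited table. RNA came from all main hind limb muscles together (tibialis anterior, extensor digitorum longus, gastrocnemius, soleus and quadriceps) of unexercised male C57BL/6 mice aged 3 months, with 1 library for each of 6 mice. The Baf155ΔMF libraries (n = 3) came from mice that carry floxed Baf155 alleles and the MCK-Cre transgene and are labelled Baf155 -/-. The control libraries (n = 3) came from Baf155WT mice, which are labelled wild type. The paper defines these controls as mice that also carry the floxed alleles, and names no transgene for them. Baf155, encoded by Smarcc1, is a core subunit of the SWI/SNF chromatin remodeling complex. MCK-Cre acts in muscle fibers, and also in heart, so macrophages, fibroblasts, vessels and other cells of the muscle keep their Baf155 gene. The whole tissue was read, so fewer cells of a type and less RNA per cell cannot be told apart in any value below.

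Chemokines are small secreted proteins that guide migrating cells through G protein-coupled receptors. Ccl2 and Ccl7 draw monocytes through Ccr2, Ccl8 is a further CC chemokine, and Ccl11 (eotaxin) draws eosinophils through Ccr3. Ccl6 and Ccl9 are rodent CC chemokines made largely by myeloid cells that act on Ccr1. Cxcl12 retains and guides cells through Cxcr4 and is also taken up by the scavenger Ackr3. Cxcl16 is made as a membrane-anchored ligand of Cxcr6. Pf4 (platelet factor 4, Cxcl4) is stored in platelet granules and is also expressed by tissue macrophages, and Cxcl14 is a homeostatic chemokine expressed by stromal and epithelial cells. In injured muscle the Ccr2 ligands recruit monocytes, while resting muscle makes little of them.

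Of the 10 ligands 7 lie on chromosome 11 of the GRCm38 build. Ccl2 (82035571-82037453, plus strand), Ccl7 (82045712-82047525, plus strand), Ccl11 (82057823-82062955, plus strand) and Ccl8 (82115185-82116799, plus strand) form a row. Ccl9 (83572919-83578636, minus strand) and Ccl6 (83587882-83593087, minus strand) lie next to each other, 9.25 kb apart and 1456 kb beyond Ccl8. Cxcl16 (70453983-70459984, minus strand) lies apart from both groups. Pf4 is on chromosome 5 (90772435-90773383, plus strand), Cxcl12 on chromosome 6 (117168535-117181367, plus strand) and Cxcl14 on chromosome 13 (56288643-56296551, minus strand).

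The stretch of 250 bases before the start site is printed for 4 ligands, because Ccl6, Ccl9 and Pf4 were the ones with the smallest p-values and Cxcl12 was the only tested ligand with a higher value in Baf155ΔMF muscle. The sequences are from RefSeq (GRCm38.p6), whose promoter table matched 6 of the 10 ligands (Pf4, Cxcl12, Ccl8, Ccl9, Ccl6 and Cxcl14). Capitals mark the letters ACTTCC, searched on both strands, in which the reverse strand reads GGAAGT. This core word of many ETS-type sites was picked after the sequences and the values had been seen. Each is written 5′ to 3′ in the direction of transcription.
Ccl6 (chr11:83593088-83593337, minus strand): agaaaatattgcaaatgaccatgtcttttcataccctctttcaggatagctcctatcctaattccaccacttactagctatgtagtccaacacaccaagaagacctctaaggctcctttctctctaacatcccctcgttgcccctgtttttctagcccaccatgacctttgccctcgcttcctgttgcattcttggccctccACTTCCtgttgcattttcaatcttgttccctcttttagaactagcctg
Ccl9 (chr11:83578637-83578886, minus strand): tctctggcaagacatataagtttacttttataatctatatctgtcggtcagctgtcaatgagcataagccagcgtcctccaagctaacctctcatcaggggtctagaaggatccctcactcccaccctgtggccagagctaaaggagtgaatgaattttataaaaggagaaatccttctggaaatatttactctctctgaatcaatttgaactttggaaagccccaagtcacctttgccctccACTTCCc
Pf4 (chr5:90772185-90772434, plus strand): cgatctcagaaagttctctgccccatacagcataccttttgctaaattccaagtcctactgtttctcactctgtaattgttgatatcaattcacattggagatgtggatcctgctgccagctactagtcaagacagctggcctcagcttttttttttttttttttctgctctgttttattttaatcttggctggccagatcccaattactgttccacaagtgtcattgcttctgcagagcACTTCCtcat
Cxcl12 (chr6:117168285-117168534, plus strand): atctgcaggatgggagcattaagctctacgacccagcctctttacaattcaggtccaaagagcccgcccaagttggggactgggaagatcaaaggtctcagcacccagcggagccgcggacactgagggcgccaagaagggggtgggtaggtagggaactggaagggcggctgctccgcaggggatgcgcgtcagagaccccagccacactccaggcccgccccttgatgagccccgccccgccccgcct

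ACTTCC was present in 3 of the 6 matched promoter windows (250 bases before to 50 after the start) and in 23.8% of all 32851 windows of that length. It began at base -48 in Ccl6, at base -7 in Ccl9 and at base -10 in Pf4, counted backward from -1 at the base before the start. The Ccl6 and Ccl9 windows shared a stretch of 74 aligned columns across their start sites, of which 59 were identical (79.7%). The ACTTCC of both genes lies in that stretch, so the 3 matches are not independent of each other. No other pair of the matched windows aligned over more than 29 columns. The Cxcl12 window was rich in G and C (64.7%), as was that of Cxcl14 (62.7%), against 43.3% for Pf4, 43.7% for Ccl9, 45.3% for Ccl6, 44.7% for Ccl8 and a median of 52.7% over all windows. TTCNNNGAA, the spacing that STAT factors bind, occurred in 1 of the 6 windows (Cxcl14) and in 8.3% of all. A match of letters is a description of the window and says nothing of what binds there.

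The table gives estimated reads per gene, which summed to between 8426022 and 12469335 in a library. Smarcc1 itself was at 17.0 to 23.4 CPM (read counts scaled by TMM-corrected library size) in Baf155WT and 6.54 to 7.72 CPM in Baf155ΔMF, and fell by 1.49 on the log2 scale (SE 0.15, edgeR quasi-likelihood test, adjusted p = 0.00907). It was 1 of 3 among the 12116 genes tested (0.0248%) with an adjusted p under 0.05. The titles carry the prefixes MS13, MS14 and MS15, whose meaning the labels do not give. One Baf155WT library (MS13-3) and a pair of Baf155ΔMF libraries (MS13-1, MS13-2) share MS13, while MS15 holds only Baf155WT libraries (MS15-2, MS15-3) and MS14 only a Baf155ΔMF library (MS14-2). Prefix and genotype can therefore be told apart only through the MS13 libraries. Both MS15 libraries exceeded the other 4 in 17.5% of the genes tested.

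Estimates with a fractional part were found for 2 of the 10 ligands, Ccl9 and Cxcl16, against 14.1% of all genes in the table (2919 of 20632, tolerance 0.001). The other 8 had whole numbers in every library. Ccl9 was fractional in all 6 libraries, at 62.44, 180.59 and 119.06 in Baf155WT (MS13-3, MS15-2, MS15-3, the order used throughout) and 40.96, 48.03 and 53.09 in Baf155ΔMF (MS13-1, MS13-2, MS14-2). Ccl9 was also the only ligand with 50-base stretches shared in the same sense with transcripts of other genes in GENCODE M21, 59 of its 2996 stretches being found in 250 other genes.

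Cxcl16 was fractional in 4 libraries, at 34.9 and 66.74 in MS13-3 and MS15-2 and at 16.76 and 22.93 in MS13-1 and MS13-2, and whole in MS15-3 (35) and MS14-2 (27). Its exons share 552 bases with those of Zmynd15, a gene on the opposite strand. Zmynd15 was estimated at 2.1, 5.26 and 5 reads in Baf155WT and at 6.24, 2.07 and 4 in Baf155ΔMF. The Cxcl16 and Zmynd15 estimates were fractional in the same 4 libraries and added up to a whole number in all 6 (37, 72, 40, 23, 25 and 31). Whether strand was used in the counting is not given, reads from the shared bases cannot be told apart here, and Cxcl16 is uncertain by that much.

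Enough reads for a test were found for 7 ligands, and 6 of them had a negative log2 fold change in Baf155ΔMF muscle (50.2% of all genes tested did). None of the 7 had an adjusted p under 0.05 in edgeR, DESeq2 or limma-voom, and the edgeR values lay between 0.601 and 0.698. At an unadjusted p under 0.05 there were 4, all lower in Baf155ΔMF (Ccl6, Ccl9, Cxcl16 and Pf4), against 7.95% of all genes tested in either direction and 4.6% on the lower side. DESeq2 also gave 4 (605 of 12116 genes passed), but with Cxcl14 (unadjusted p = 0.0268) in place of Cxcl16 (0.0626). With limma-voom there were 5 (940 of 12116 genes passed), those of edgeR and Cxcl12 (unadjusted p = 0.0453), which was higher in Baf155ΔMF. In edgeR, Ccl6, Ccl9 and Pf4 also passed an unadjusted p under 0.01 with a fold below 0.7. Of all genes 0.809% passed these limits on the lower side and 1.11% in either direction (there with a fold above 1.4). Ccl9 and Pf4 are on the study's list of differential genes, chosen on these same libraries, so their counts here are not independent evidence. The median log2 fold change of the 7 was -0.68, against -0.00095 over all genes tested. In none of the 7 were the groups separate, while 10.8% of all genes had groups that did not overlap and 5.57% had every Baf155ΔMF value below every Baf155WT value.

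**Figure D1:**
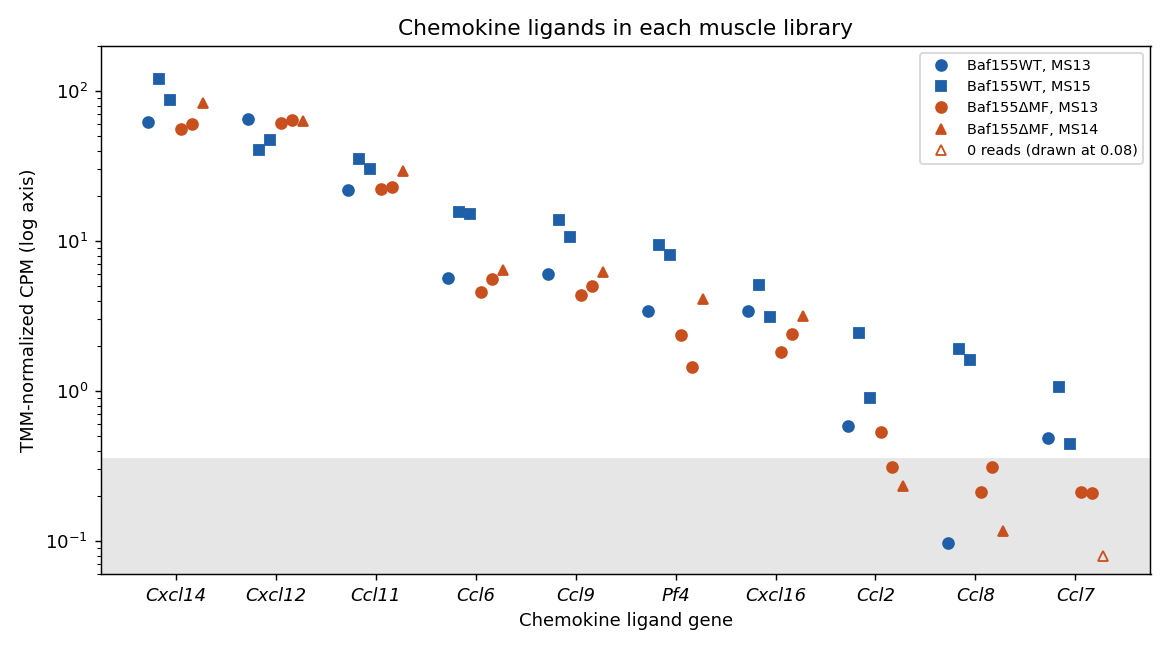
TMM-normalized CPM (log axis) of the 10 ligands in each of the 6 libraries, with color for the genotype and shape for the title prefix. The grey band reaches up to 0.351 CPM, the highest level that 3 reads gave in any library. The blue squares of the MS15 libraries stand above the other points for most ligands and below them for Cxcl12, and Ccl2, Ccl7 and Ccl8 reach into the band.

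The myeloid ligands Pf4, Ccl6 and Ccl9 had the lowest p-values of the group. Pf4 was at 3.4, 9.41 and 8.03 CPM in Baf155WT and at 2.35, 1.45 and 4.09 CPM in Baf155ΔMF, from 35, 123 and 90 reads and from 22, 14 and 35 reads. The MS15 libraries were highest, and MS14-2 lay above MS13-3, so the groups overlapped. The Pf4 log2 fold change was -1.43 (SE 0.40, 95% interval -2.31 to -0.55, unadjusted p = 0.00426, edgeR adjusted p = 0.601, n = 3 per group). Among the MS13 libraries, with 1 Baf155WT mouse and hence no test, both Baf155ΔMF values were below the Baf155WT value, with a log2 ratio of -0.84. Without both MS15 libraries, which keeps MS14-2, the Pf4 log2 fold change was -0.39 (edgeR adjusted p = 0.999). With the prefix as a covariate, the genotype difference rested on the same MS13 libraries, so that fit is no separate result. Its p-values assume that the 1 Baf155WT mouse varied like libraries that share a prefix and genotype. In it, Pf4 alone of the ligands had an unadjusted p under 0.05, as had 5.08% of all genes. Its log2 fold change in that edgeR fit was -0.84 (SE 0.36, adjusted p = 0.942), and no ligand had an adjusted p under 0.05 there, against 0.132% of all genes.

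Ccl6 was at 5.64, 15.7 and 15.3 CPM in Baf155WT and at 4.59, 5.61 and 6.43 CPM in Baf155ΔMF. The MS15 libraries were the highest, and the other 4, MS13-3 among them, spanned only 4.59 to 6.43 CPM. The Ccl6 log2 fold change was -1.15 (SE 0.33, unadjusted p = 0.00473, edgeR adjusted p = 0.601), -0.14 within MS13 and -0.03 without both MS15 libraries. Ccl9, its neighbor on chromosome 11, was at 6.02, 13.8 and 10.6 CPM in Baf155WT and at 4.38, 4.98 and 6.2 CPM in Baf155ΔMF. Again the MS15 libraries were highest and MS14-2 lay just above MS13-3. Its log2 fold change was -0.99 (SE 0.27, unadjusted p = 0.00407, edgeR adjusted p = 0.601), -0.36 within MS13 and -0.22 without both MS15 libraries. Rounding, cutting down or keeping the fractional Ccl9 estimates left it among the 4 ligands with an unadjusted p under 0.05.

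Cxcl16 was at 3.4, 5.13 and 3.12 CPM in Baf155WT and at 1.82, 2.39 and 3.16 CPM in Baf155ΔMF. Here the MS13-3 and MS15-3 values were alike, and MS14-2 lay just above MS15-3. The Cxcl16 log2 fold change was -0.68 (SE 0.28, unadjusted p = 0.0322, edgeR adjusted p = 0.601). It was -0.69 within MS13 and with the prefix as a covariate, a fit that rests on the same MS13 libraries (SE 0.39, edgeR adjusted p = 0.979). Without both MS15 libraries it was -0.48, and without MS15-2 alone it was -0.41.

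Cxcl14, Cxcl12 and Ccl11 had the highest CPM of the 10 ligands (not divided by length) and, of the 7 tested, the fold changes nearest to 0. Cxcl14 was at 62.4, 120.3 and 87.2 CPM in Baf155WT and at 55.7, 60.4 and 83.5 CPM in Baf155ΔMF. The MS15 libraries were highest, with MS14-2 close behind. Its log2 fold change was -0.44 (SE 0.21, 95% interval -0.91 to 0.03, edgeR adjusted p = 0.622), -0.10 within MS13 and -0.17 without MS15-2. Ccl11, the eosinophil attractant, was at 21.9, 35.5 and 30.2 CPM in Baf155WT and at 22.3, 23.1 and 29.5 CPM in Baf155ΔMF, with a log2 fold change of -0.23 (SE 0.17, 95% interval -0.61 to 0.14, edgeR adjusted p = 0.698). Within MS13 it was 0.05, the opposite sign, and with a single library left out it was -0.06 without MS15-2, -0.40 without MS13-3 and -0.36 without MS14-2.

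Cxcl12 was the exception in direction. It was at 65.6, 40.7 and 46.8 CPM in Baf155WT and at 61.5, 64.6 and 63.1 CPM in Baf155ΔMF. The MS15 libraries were the lowest of the 6, and the Baf155WT library MS13-3 was the highest. The log2 fold change was 0.31 (SE 0.15, 95% interval -0.02 to 0.64, edgeR adjusted p = 0.622), and -0.06 within MS13, so the sign turned there. It was 0.17 without MS15-2 and 0.53 without MS13-3. The Baf155ΔMF values varied little (63.1 ± 1.54 CPM, SD, n = 3) beside the Baf155WT values (51.0 ± 12.96 CPM, SD, n = 3).

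**Figure D2:**
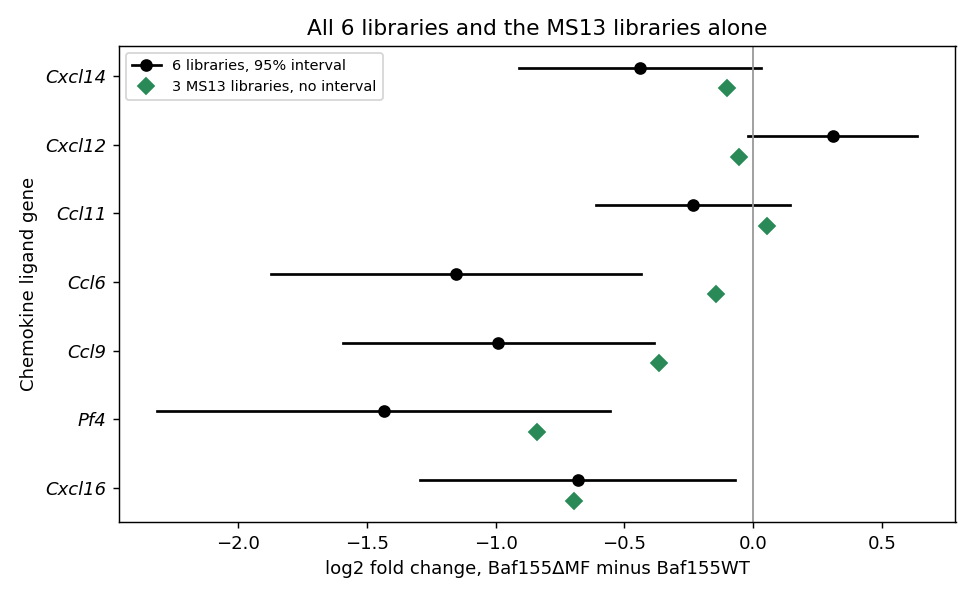
Log2 fold change (Baf155ΔMF minus Baf155WT) of the 7 ligands tested, as black points with 95% intervals from the edgeR fit of 6 libraries, and as green diamonds for the 3 MS13 libraries, which allow no interval. The diamonds of Ccl6, Ccl11, Cxcl12 and Cxcl14 lie between -0.14 and 0.05, while that of Cxcl16 stands at -0.69 and that of Pf4 at -0.84.

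The ligands Ccl2, Ccl7 and Ccl8 were near the limit of detection and were not tested. Ccl2 had 6, 32 and 10 reads in Baf155WT and 5, 3 and 2 in Baf155ΔMF. Ccl7 had 5, 14 and 5 reads in Baf155WT and 2, 2 and 0 in Baf155ΔMF. Every Baf155ΔMF value of Ccl2 and Ccl7 in CPM was below every Baf155WT value, by as little as 0.534 against 0.583 CPM for Ccl2. Ccl8 had 1, 25 and 18 reads in Baf155WT and 2, 3 and 1 in Baf155ΔMF, so its reads came almost wholly from the MS15 libraries and the groups overlapped. A count of 3 reads was worth 0.23 to 0.351 CPM, and all of the Baf155ΔMF values of Ccl7 and Ccl8 were at or under that level.

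Over the group totals, and relative to library size, the ratio of Baf155ΔMF to Baf155WT was 0.261 for Ccl2 (10 against 48 reads, 95% exact interval 0.118 to 0.523), 0.209 for Ccl7 (4 against 24 reads, 0.0527 to 0.609) and 0.171 for Ccl8 (6 against 44 reads, 0.0596 to 0.403). Summed over the 3 genes there were 12, 71 and 33 reads in Baf155WT and 9, 8 and 3 in Baf155ΔMF. These intervals cover counting error only, and the Baf155WT libraries differed among themselves by more than that. Within MS13 the sums were 12 reads in Baf155WT against 9 and 8 in Baf155ΔMF.

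The library MS15-2 was the highest of the 6 for 9 of the 10 ligands, and for 6 of the 7 tested, against 19.1% of all genes tested. Both MS15 libraries exceeded the other 4 for 7 of the 10 ligands, 5 of them tested, against 17.5% of all genes tested. The others were Ccl2 and Ccl8, which had too few reads to be tested. Without MS13-3, 5 of the 7 ligands tested with all 6 libraries had an adjusted p under 0.05 in edgeR. They were Ccl6 (0.000161), Ccl9 (0.00124), Pf4 (0.00167), Cxcl12 (0.00463) and Cxcl14 (0.0207), and 955 genes in all passed (7.77%). Ccl8 then entered the test as an eighth ligand only through the MS15 libraries, where it is high, and its adjusted p there (0.00281) is no support. Without both MS15 libraries, a setting chosen after the data were seen that leaves 1 Baf155WT library assumed to vary like the other group, none had an unadjusted p under 0.05 in edgeR.

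Summed over the 10 ligands, the level was 169, 246 and 204 CPM in Baf155WT and 154, 163 and 196 CPM in Baf155ΔMF (206.5 ± 38.3 against 171.1 ± 22.4 CPM, SD, n = 3), a log2 ratio of -0.27. Cxcl14, Cxcl12 and Ccl11 made up most of it. The log2 ratio was 0.01 without the MS15 libraries.

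Divided by the length of the longest coding transcript in GENCODE M21, the order of levels in Baf155WT was Cxcl14 (49.2 ± 15.9 CPM per kb, SD, n = 3), Ccl11 (27.0 ± 6.35), Pf4 (11.8 ± 5.35), Cxcl12 (9.07 ± 2.3), Ccl6 (8.47 ± 3.95), Ccl9 (3.38 ± 1.31), Ccl8 (2.36 ± 1.9), Ccl2 (1.61 ± 1.23), Cxcl16 (1.44 ± 0.402) and Ccl7 (0.834 ± 0.437). Cxcl14 and Ccl11 each stood clear of the next gene, whereas from Pf4 down the ranges of neighbors overlapped. In Baf155ΔMF the order began with Cxcl14 (36.4 ± 8.13), Ccl11 (23.1 ± 3.64) and Cxcl12 (11.2 ± 0.274), followed by Pf4 (4.48 ± 2.28), Ccl6 (3.85 ± 0.64), Ccl9 (1.73 ± 0.308) and Cxcl16 (0.909 ± 0.25), with Ccl2, Ccl8 and Ccl7 last. The place of Cxcl12 depends on the transcript, since its coding transcripts run from 1878 to 5627 bases, and with the shortest it would be at 27.2 ± 6.9 CPM per kb in Baf155WT.

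Macrophage markers were, like the myeloid ligands, highest in the MS15 libraries. All 12 of the 14 macrophage markers that could be tested were lower in Baf155ΔMF, 10 of them at an unadjusted p under 0.05 and none at an adjusted p under 0.05 in edgeR, with a median log2 fold change of -0.97. Over all genes tested 50.2% were lower, and 4.6% were lower at an unadjusted p under 0.05. Their summed level was 95.7, 305 and 242 CPM in Baf155WT and 90.2, 89.6 and 153 CPM in Baf155ΔMF, the same order of libraries as for the sum of Pf4, Ccl6 and Ccl9 (15.1, 38.9 and 33.9 CPM, and 11.3, 12.04 and 16.7 CPM) apart from the lowest pair. Among them were C1qb, a complement subunit made by macrophages (log2 fold change -1.16, and -0.50 within MS13), and Mrc1, the mannose receptor of resident macrophages (-0.84, and -0.02 within MS13). Within MS13 the tested macrophage markers ran from the -0.50 of C1qb to 0.38 for Fcer1g. C1qa (0.02) and Mpeg1 (0.09) were also positive there, and the others were negative. Adipocyte markers (4 of 4 lower, 2 at an unadjusted p under 0.05) were also highest in the MS15 libraries, at 41.5 and 33.6 CPM against 15.6 to 23.5 CPM in the other 4. Erythroid markers (5 of 5 tested lower, 3 at an unadjusted p under 0.05) summed to 623 to 1229 CPM in Baf155WT and 371 to 806 CPM in Baf155ΔMF. Endothelial markers (6 of 6 higher, 2 at an unadjusted p under 0.05) were, like Cxcl12, lowest in the MS15 libraries, at 231 and 244 CPM against 307 to 328 CPM. The same held for smooth muscle and pericyte markers, at 639 and 671 CPM against 767 to 907 CPM. Of these 5 markers 4 were higher, 1 of them at an unadjusted p under 0.05. Over all 12116 genes tested 6033 were higher, and 406 were higher at an unadjusted p under 0.05. Monocyte markers (1 of 4 tested, lower) were highest in the MS15 libraries, at 19.9 and 13.03 CPM against 4.86 to 7.89 CPM. The part of any of these cells in the ligand values was not tested.

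Platelet and megakaryocyte markers, of which 3 of 8 were tested, summed to 4.67 to 6.55 CPM with no separation of the groups. The sum was 4.74 CPM in MS15-2, where Pf4 was highest. Itga2b (log2 fold change -0.30) and Ppbp (-0.43) were lower and Gp1ba (0.50) was higher, none at an unadjusted p under 0.05 in edgeR. Their reads were few, and the part of platelets in the Pf4 values was not tested. Fibro-adipogenic progenitor markers, the stromal cells of muscle, summed to 2051 to 2446 CPM in Baf155WT and 1810 to 2799 CPM in Baf155ΔMF. Of these 8 markers 5 were lower (50.2% of all genes tested) and highest in MS15-2 (19.1% of all genes tested). Among them Dcn, Lum and Ly6a had an unadjusted p under 0.05 in edgeR (log2 fold changes -0.43, -0.41 and -0.46), against 4.6% of all genes on the lower side. The collagens Col1a1 (0.36), Col1a2 (0.16) and Col3a1 (0.31) were highest in MS14-2. None of the 5 neutrophil, 5 T cell and 4 B cell markers had enough reads to be tested.

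**Figure D3:**
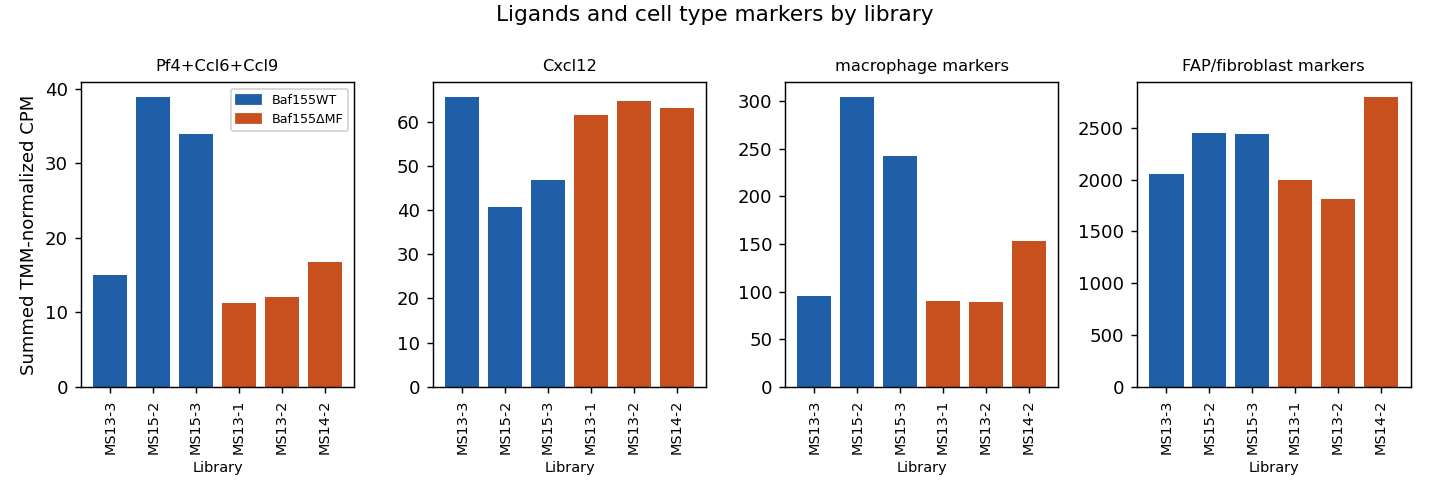
Summed TMM-normalized CPM in each library for Pf4, Ccl6 and Ccl9, for Cxcl12, and for the markers of macrophages and of fibro-adipogenic progenitors (FAP), with 1 bar per library on axes that start at 0. The macrophage bars are highest in MS15-2 (305 CPM) and MS15-3 (242 CPM), as are those of the 3 myeloid ligands (38.9 and 33.9 CPM), and Cxcl12 is lowest there.

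The receptors of these ligands were read in the same libraries. Of 23 chemokine receptors and scavengers 10 were tested, 7 with a negative log2 fold change (50.2% of all genes), and none had an adjusted p under 0.05 in edgeR. Ackr1, which carries chemokines across venular endothelium (log2 fold change -0.78, SE 0.31), and Cxcr2 (0.34, SE 0.14) had an unadjusted p under 0.05 (0.0276 and 0.0316), 2 of 10 against 7.95% of all genes. Estimates were fractional in 6 libraries for Cxcr2 and in 5 for Ccr2. Ccr2 was at 10.1 ± 5.1 CPM in Baf155WT and 6.86 ± 1.07 CPM in Baf155ΔMF (SD, n = 3), with a log2 fold change of -0.58 (SE 0.32, edgeR adjusted p = 0.635) that was 0.49 within MS13. Like Ccl2 and Ccl7, it was highest in MS15-2. Cxcr6, the receptor of Cxcl16, was at 1.08 ± 0.3 CPM in Baf155WT and 1.7 ± 0.471 CPM in Baf155ΔMF, without overlap and in the opposite direction to its ligand (log2 fold change 0.64, SE 0.34, edgeR adjusted p = 0.633). For the Cxcl12 receptors the log2 fold change was -0.10 for Cxcr4 (SE 0.21) and -0.27 for Ackr3 (SE 0.16), with edgeR adjusted p of 0.897 and 0.657. Ccr1 had too few reads to be tested (54 in all), and Ccr3, the eotaxin receptor, had 2 reads in all.

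Of 25 further chemokine ligands looked for, 24 had a row and 7 were tested, 4 lower and 3 higher (50.2% of all genes were lower). Ccl24, another eosinophil attractant acting on Ccr3, was the only one with an unadjusted p under 0.05 (7.95% of all genes). It was at 2.21 ± 0.518 against 1.17 ± 0.397 CPM (log2 fold change -0.92, SE 0.33, edgeR adjusted p = 0.601). Its groups did not overlap, as was so for 10.8% of all genes. Of 26 tested inducers of chemokine genes (cytokines, their receptors and transcription factors) 17 were lower and 9 higher (50.2% of all genes were lower), with a median of -0.04, and 2 had an unadjusted p under 0.05 (7.95% of all genes). Myd88, the adaptor of Toll-like and interleukin-1 receptors, had a log2 fold change of -0.47 (SE 0.18, unadjusted p = 0.0277), and Irf1, an interferon-induced factor, had 0.47 (SE 0.18, unadjusted p = 0.0255). Both had an edgeR adjusted p of 0.601.

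Chemokines are cut by proteases and held on proteoglycans, and 12 of 18 tested genes of this kind were lower (50.2% of all genes), with a median of -0.11. Of these, 4 had an unadjusted p under 0.05, all lower (4.6% of all genes), with an edgeR adjusted p of 0.601 for each. Dpp4, which clips the amino end of Cxcl12 and Ccl11, had a log2 fold change of -0.61 (SE 0.18) and groups that did not overlap, as had Sdc4, a heparan sulfate carrier (-0.40, SE 0.12). Both are on the differential gene list of the study, which was chosen on these libraries. Mmp9, a gelatinase that trims several chemokines, was at -1.11 (SE 0.35, and -0.34 within MS13), and Ctss, a lysosomal protease of myeloid cells, at -1.06 (SE 0.38, and -0.26 within MS13). Adam10 and Adam17, which shed Cxcl16 from the membrane, had log2 fold changes of 0.16 (SE 0.15) and 0.07 (SE 0.11) with edgeR adjusted p of 0.75 and 0.87.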

How the data were processed

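Stranded total RNA libraries (TruSeq) of hind limb muscle from 3 Baf155WT and 3 Baf155ΔMF mice had been sequenced on an Illumina HiSeq instrument. The submitters' processing notes name CASAVA 1.8.2, cutadapt 1.10, Bowtie2 2.2.7, TopHat2 2.1.1, RSEM 1.2.30, limma and mm10/GRCm38, with no role or order. The annotation and read length are not given in the sources used here. The deposited values are estimated counts (expected counts) per gene that the authors had not normalized, and they were rounded to whole numbers here. Groups followed the genotype labels. Genes passing filterByExpr (minimum count 10, minimum total 15) were scaled by TMM and tested with edgeR 4.0.16 (R 4.3.3, quasi-likelihood F test, two-sided), with Benjamini-Hochberg adjustment over all genes tested. Library totals ran from 8426022 to 12469335 counts, and 3 counts were worth 0.23 to 0.351 CPM. Values of untested genes came from the same fit without the filter. With 3 mice per group an exact permutation test cannot go below p = 0.10. Nothing in the labels says more of the mice, and the p-values measure the spread between these libraries.

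Alternatives were DESeq2 1.42.0, limma-voom (limma 3.58.1), other scaling, filters and rounding, the title prefix as a covariate, the MS13 libraries alone, and leaving out each library. Gene positions, exon overlap, transcript lengths and shared 50-base stretches were taken from GENCODE M21. The ligands and all gene lists were chosen with earlier results of these data known. All 10 ligands are described. From the lists of receptors, further ligands, inducers and processing genes, up to 4 tested genes each with an unadjusted p under 0.05 are named. Those with the smallest p came first, and the ligands' receptors were added. Adam10, Adam17 and Zmynd15 were added after their values were seen. Cell type markers are given as sums and counts, with a few macrophage, platelet and fibro-adipogenic progenitor markers named. The myofiber and satellite cell markers are left out. The script was tested on simulated data with known changes. The totals column was not used.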

Additional observations from a re-analysis of the deposited data

How the results depend on the processing

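Depth limits Ccl2, Ccl7 and Ccl8, whose Baf155ΔMF reads were at or near 3 per library. No paired analysis was possible because the labels give no numbers that match mice across the genotypes, and the replicate numbers used here only follow the order of deposition. At an adjusted p under 0.05 there were 3 genes in edgeR, 23 in DESeq2, 5 in limma-voom, 17 with every gene of at least 1 count, 16 when the prefix was a covariate and 16 without the MS15 libraries. It ran from 0 to 955 when each library was left out in turn, being 955 without MS13-3 and 0 without MS15-2 (451 genes at an unadjusted p under 0.05) or without MS13-2 (568). The count of ligands with an adjusted p under 0.05 was 0 in all settings except without MS13-3, so that it ran from 0 to 6, with Ccl8 among the 6 through its Baf155WT reads alone. The count at an unadjusted p under 0.05 was 4, and 1 with the prefix as a covariate. With each library left out it ran from 3 to 8. It was 9 of 10 with every gene of at least 1 count, where 1279 of 16274 genes passed. Ccl2, Ccl7 and Ccl8, which the main filter removed, are among the 9 with few Baf155ΔMF reads, and are no support. The 8 came without MS13-3, where 2923 of 12288 genes passed, and Ccl8 is again among them. Ccl8 was also counted without MS13-1 and without MS13-2. The log2 ratio of the summed ligands, -0.27, was 0.0124 without the MS15 libraries and ran from -0.39 to -0.12 with each library left out.

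The sign reversed with the prefix as a covariate for Ccl11 (0.0533), Cxcl12 (-0.0569) and Ccl8 (1.33, against -2.45 in the fit of all 6 libraries, both from a few reads), and without the MS15 libraries for Ccl11 (0.19), Cxcl12 (-0.0578), Cxcl14 (0.0893) and Ccl8 (1.06). Ccl2, Ccl6, Ccl7, Ccl9, Cxcl16 and Pf4 had a negative log2 fold change in all settings run. The cause of these shifts was not tested. Single libraries left out moved the log2 fold change within -1.88 to -1.13 for Pf4, -1.48 to -0.92 for Ccl6, -1.25 to -0.69 for Ccl9, -0.89 to -0.41 for Cxcl16, -0.64 to -0.17 for Cxcl14, -0.40 to -0.06 for Ccl11 and 0.17 to 0.53 for Cxcl12. Other scaling, DESeq2, limma-voom and rounding left 6 ligands with a negative log2 fold change.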
